A study of Mus musculus with 8 samples.

Results

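Knockdown of Ring1a was examined in cells whose EZH1 and EZH2 were inhibited with DS3201. The comparison takes 4 of the 8 libraries of the study, 2 with the Ring1a shRNA and DS3201 and 2 with the control shRNA and DS3201, chosen by their labels. All were polyA RNA from one line of immortalized mouse embryonic fibroblasts described as knockouts for Setdb1, Suv39h1, Suv39h2, Ehmt1 and Ehmt2, which encode H3K9 methyltransferases, and for Ring1b (Rnf2), so the controls lack the same 6 genes. A lentivirus carried the shRNA into the cells at a multiplicity of infection of 2, and blasticidin at 7 ug/ml for 3 days selected for it. DS3201 was given at 1 uM for 7 days. The remaining 4 libraries carried the same shRNAs without DS3201 and are used here only to set the knockdown with the inhibitor beside the knockdown without it.

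Column names start with 20 or 28, and each prefix holds 1 library of each group, called set 20 and set 28 below. The labels number the replicates and put each number in its own batch, but do not tie a number to a prefix. A single knockout line and a single Ring1a shRNA were used, and nothing states that the libraries of a group came from separate cultures. Differences between the sets were shared across groups (Pearson r 0.559 to 0.897 between groups). Sdc3, for one, had 0 counts in both set 20 libraries without DS3201, and 129 and 173 in those of set 28. What the sets are was not tested, so the kind of variation between libraries that a p-value here reflects is not known. Most of the fibroblast markers chosen were abundant, with Col1a1 between 3052 and 6954 CPM (counts scaled to the library size) in all 8 libraries. Vim lay between 1762 and 2879 CPM. Lower were S100a4, between 100.9 and 285.6 CPM, and Pdgfrb, between 49.5 and 219.5 CPM. Thy1, also chosen, has no value here.

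Polycomb repressive complex 1 (PRC1) is a ubiquitin ligase that marks histone H2A at lysine 119 through RING1A or RING1B, and PRC2 methylates histone H3 at lysine 27 through EZH1 or EZH2. Both keep developmental genes silent in differentiated cells, and each mark can help to recruit the other complex. In cells without Ring1b, RING1A (gene symbol Ring1) is the catalytic subunit that PRC1 has left. The comparison therefore asks what lower Ring1 does once PRC2 is already inhibited, in cells that also lack most H3K9 methylation enzymes.

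The knockdown was seen in both sets. With the control shRNA and DS3201, Ring1 (chr17, 34020792 to 34024680 on mm10, minus strand) stood at 20.4 CPM in set 20 and 7.51 CPM in set 28. With the Ring1a shRNA and DS3201 it stood at 3.52 and 2.04 CPM, below both controls. The log2 differences were -2.50 and -1.82, which are 5.64-fold and 3.53-fold lower. After the correction for GC content described below they were -2.46 and -2.43. Without DS3201, Ring1 went from 20.2 to 4.51 CPM in set 20 and from 9.73 to 1.41 CPM in set 28. The fitted log2 change was -2.22 ± 0.30 (SE, n = 2 a group) with DS3201 and -2.42 without it, and the difference between them was 0.20 ± 0.41 (edgeR quasi-likelihood test, adjusted p = 0.99). In the fit of all 8 libraries the adjusted p for Ring1 with DS3201 was 0.594. With only the 4 DS3201 libraries fitted it was 0.00103, so the targeted gene was called in 1 of these 2 fits. The fit of 4 libraries has few libraries for its terms, so its p-values lean on the spread borrowed from other genes.

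Over the whole table no entry passed the test. The edgeR quasi-likelihood test, with the set as a block and all 8 libraries, called 0 of 15287 entries higher and 0 lower with the Ring1a shRNA under DS3201 at an adjusted p of 0.05, a background of 0% called. The unadjusted p was under 0.05 for 518 entries that were higher and 618 that were lower. DESeq2 with the same block called 9 higher and 28 lower, and edgeR on the 4 DS3201 libraries alone called 11 higher and 9 lower. DESeq2 gave no adjusted p for 7706 entries, Ring1 among them, so Ring1 is not one of its calls. No entry passed for the knockdown without DS3201 either (edgeR, 0% called; 394 higher and 182 lower at an unadjusted p under 0.05), nor for the difference between the 2 knockdown effects (0% called; 29 and 115). The values below are therefore given set by set, and "higher" and "lower" describe values and not calls. Where knockdown libraries are said below to lie above or below both controls, this describes genes picked by their values. No share over all entries is given for it, so it is no added support.

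The sets differed in how far genes moved. In set 20, 264 entries were at least 2-fold higher with the Ring1a shRNA (1.73% of those tested, with at least 1 CPM in the higher library) and 152 were at least 2-fold lower (0.994%). In set 28 the counts were 1382 (9.04%) and 641 (4.19%). The SD of the log2 difference across entries was 0.415 in set 20 and 0.735 in set 28, and the differences of the sets correlated with r = 0.172 across the 15287 entries, which are not independent replicates. Past 2-fold in both sets were 78 entries that were higher (0.51%) and 26 that were lower (0.17%). The 78 are 29.5% of the higher list of set 20 and 5.64% of that of set 28, and the 26 are 17.1% and 4.06% of the lower lists. Another 12 entries were past 2-fold higher in set 20 and lower in set 28, and 3 the other way round. Without DS3201 the higher lists held 244 entries in set 20 (1.6%) and 236 in set 28 (1.54%), and the lower lists 38 (0.249%) and 61 (0.399%).

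**Figure D1:**
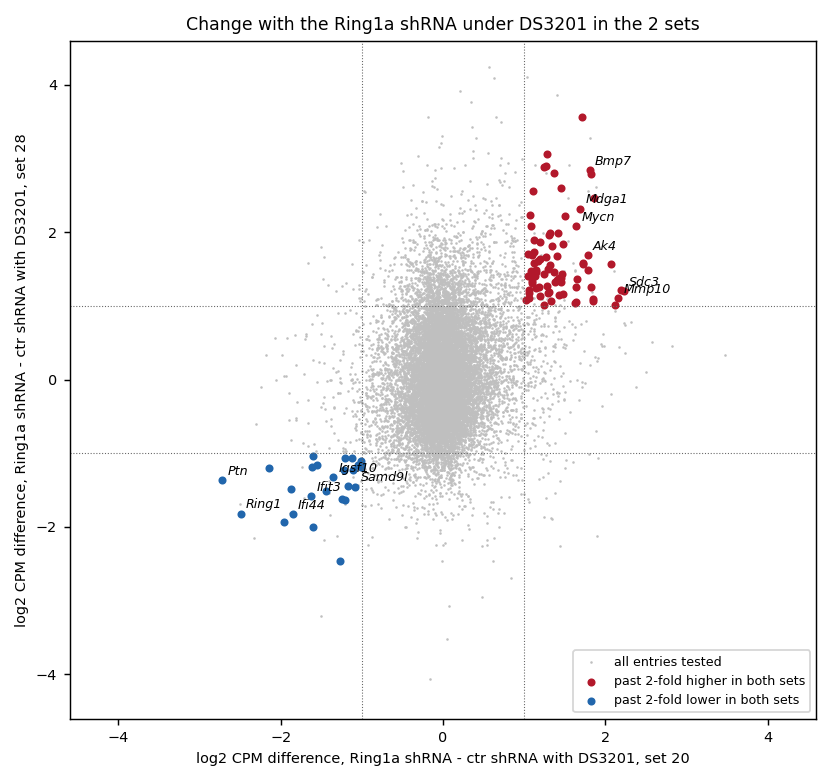
Each grey point is 1 of the 15287 entries tested, placed by its log2 CPM difference between the Ring1a and control shRNA with DS3201 in set 20 (horizontal) and set 28 (vertical). Dotted lines mark 2-fold. The cloud is taller (SD 0.735) than it is wide (SD 0.415). The 78 entries higher in both sets are red and the 26 lower in both are blue.

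The library of control cells with DS3201 in set 28 stood apart. It had the fewest counts of the 8 libraries (12738585 against up to 23688253), the largest share of counts in repeats (14.6% against 8.59% to 13%), and its changes followed the GC content of transcripts. Across 14260 genes, the Spearman correlation between GC content and the log2 difference with DS3201 was 0.648 in set 28 and 0.0377 in set 20, and without DS3201 it was 0.0164 and 0.106. Measured against the mean of the other libraries, this one had a Spearman correlation with GC content of -0.565, while the other 7 ranged from 0.02 to 0.242. In set 28 the fourth of genes with the lowest GC content had a median difference of -0.465 and the fourth with the highest 0.684; the same medians in set 20 were -0.0265 and -0.00908. Genes higher in both sets had a median GC content of 55.4% and those lower in both 44.4%, against 49.4% over all genes. What set this library apart was not tested. Values of set 28 are given beside those of set 20, and for the gene lists and the leading genes also after a correction for GC content, added once this was seen. That correction left 51 genes past 2-fold higher and 13 lower in both sets, of which 44 and 12 are among those counted above. By sign alone, 4337 of 14260 genes were higher and 3565 lower in both sets after it, which is the background for the corrected lists below.

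**Figure D2:**
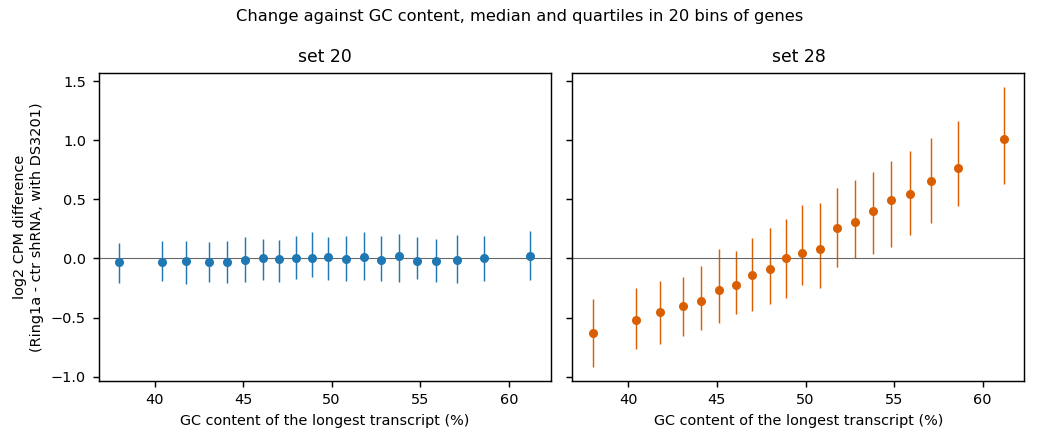
Genes were put in 20 bins by the GC content of their longest transcript (horizontal axis, percent). Points are the median log2 CPM difference between the Ring1a and control shRNA with DS3201 and bars span the quartiles. The medians of set 20 stay near 0 in every bin, and those of set 28 climb with GC content (Spearman correlation 0.648 across genes).

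A small number of well-expressed genes were lower with the Ring1a shRNA both with and without DS3201. These were picked for their small p in the knockdown contrasts, after the values had been seen, so they are a description. Xpo6 (chr7, 126101715 to 126200501), an exportin that carries actin out of the nucleus, went from 74.1 to 34.4 CPM in set 20 and from 77.6 to 33.0 CPM in set 28 with DS3201. Without DS3201 it went from 69.0 to 35.0 and from 89.4 to 32.2 CPM, so all 4 knockdown libraries lay at about the same level, below all 4 controls. The fitted log2 changes with and without DS3201 were -1.17 ± 0.17 and -1.23, and their difference was 0.06 ± 0.24 (edgeR, adjusted p = 0.999).

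Ppp2ca, a catalytic subunit of protein phosphatase 2A, went from 298.5 to 162.7 CPM and from 400.7 to 181.2 CPM with DS3201, and from 290.6 to 166.2 and from 340.2 to 160.8 CPM without it. Dnajc13, a J-domain protein of endosomes, went from 217.1 to 118.4 and from 341.5 to 121.1 CPM with DS3201. Fam63b, which encodes a deubiquitinase, went from 30.1 to 12.9 and from 54.5 to 17.6 CPM. In each of these genes the knockdown libraries did not overlap the controls. That is no added support, since the genes were picked by p in the same libraries. Mon2, a regulator of Golgi to endosome traffic, Map2k4, a kinase upstream of JNK, Pdcl, a phosducin-like folding factor, Mbnl3, a splicing regulator, and Epb4.1, a membrane skeleton protein, were lower in the same way, with fitted log2 changes between -0.87 and -1.37 with DS3201 and between -0.77 and -1.06 without it. The difference between the 2 knockdown effects ran from -0.31 to 0.00 in these 5 genes, with adjusted p of 0.99 or more in edgeR. DESeq2 with the block called 28 of 15287 entries lower, among them all 9 of the genes named in this group, with adjusted p from 0.000178 to 0.00306. Since the 9 were picked by p in the same libraries, these calls are not separate support. After the GC correction, log2 differences lay between -0.67 and -1.20 in both sets for all 9.

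**Figure D3:**
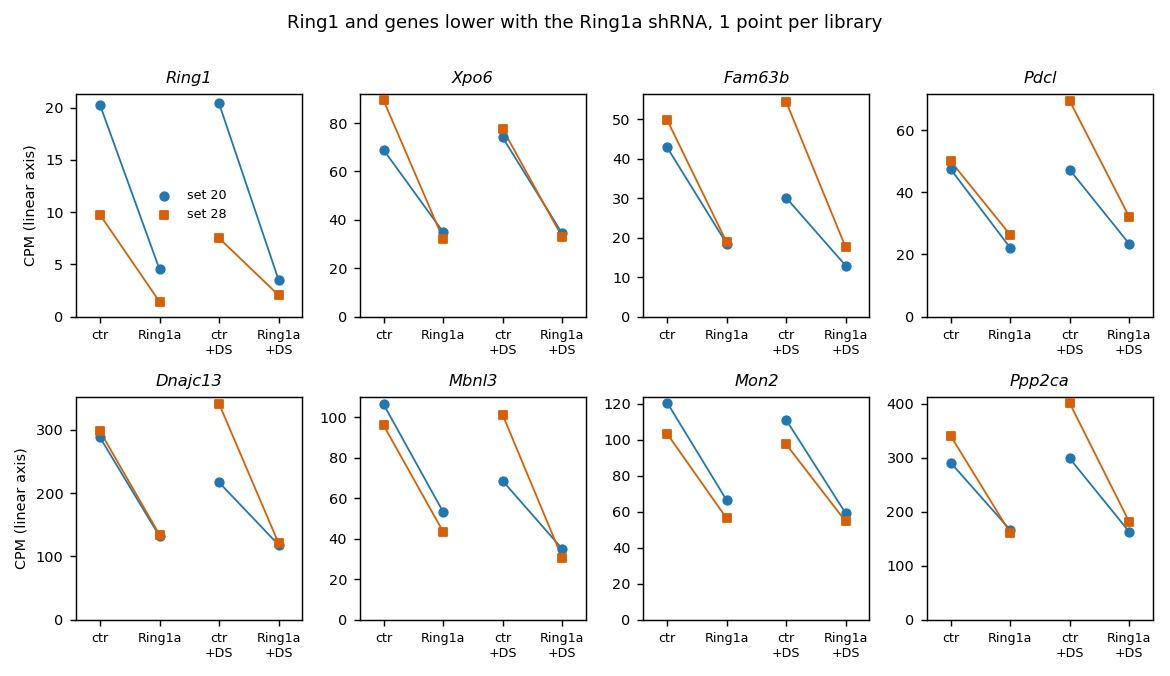
CPM on linear axes in each of the 8 libraries for Ring1 and 7 genes lower with the Ring1a shRNA; lines join the control (ctr) and Ring1a shRNA libraries of a set, and +DS marks DS3201. In all 8 panels both knockdown libraries lie below both control libraries within each treatment. In Xpo6 the 4 knockdown libraries lie between 32.2 and 35.0 CPM.

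Most genes of the interferon response were lower in both sets with the Ring1a shRNA under DS3201, mainly by the values of set 20. These genes are switched on by type I interferon and by sensors of viral RNA, and many of them encode antiviral proteins. Of the 52 members tested, 32 were lower in both sets (61.5%, against 26.6% of all entries) and 0 were higher in both (26% of all entries). The median log2 difference was -0.73 in set 20 and -0.25 in set 28, against 0.00 over all entries in both. After the GC correction the medians were -0.70 and -0.10, with 33 lower in both sets (3565 of all 14260 genes). Without DS3201 the same list had medians of -0.03 and 0.36. With DS3201 the list summed to 5050 CPM (control shRNA) and 3120 CPM (Ring1a shRNA) in set 20, and to 1500 and 1130 CPM in set 28. Without DS3201 the sums were 5180 and 4990 CPM in set 20 and 2870 and 3480 CPM in set 28. The level of the list thus differed between the sets in every group, and it was lowest in the 2 DS3201 libraries of set 28. Past 2-fold in set 20 were 7 members that were lower and 0 that were higher (0.994% and 1.73% of all entries). In set 28 there were 6 of each (4.19% lower and 9.04% higher of all entries). No member passed the edgeR test, and 12 had an unadjusted p under 0.05, all lower (618 of all 15287 entries were lower at that p).

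Past 2-fold lower in both sets were 3 members, Ifi44, Ifit3 and Samd9l, of the 26 entries (0.17% of those tested). Ifi44 encodes a GTP-binding antiviral protein, Ifit3 a protein with tetratricopeptide repeats that works in the complex sensing foreign RNA ends, and Samd9l a restriction factor that slows translation. Their promoters in RefSeq (GRCm38.p6, 250 bases before to 50 after the start, 5′ to 3′ on the strand of the gene) are shown because factors activated by interferon bind repeats of GAAA. Capitals mark GAAA, any 2 bases and GAAA again, or the same on the other strand, which is the core of the interferon-stimulated response element. They lie at chr3:151749861-151750160 (minus strand) for Ifi44, chr19:34583279-34583578 (plus) for Ifit3 and chr6:3399522-3399821 (minus) for Samd9l.
Ifi44: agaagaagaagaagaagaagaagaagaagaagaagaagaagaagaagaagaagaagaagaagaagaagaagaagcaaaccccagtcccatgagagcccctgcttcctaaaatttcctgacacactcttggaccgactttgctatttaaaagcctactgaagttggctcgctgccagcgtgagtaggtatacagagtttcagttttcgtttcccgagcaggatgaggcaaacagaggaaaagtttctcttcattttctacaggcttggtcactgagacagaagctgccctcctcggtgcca
Ifit3: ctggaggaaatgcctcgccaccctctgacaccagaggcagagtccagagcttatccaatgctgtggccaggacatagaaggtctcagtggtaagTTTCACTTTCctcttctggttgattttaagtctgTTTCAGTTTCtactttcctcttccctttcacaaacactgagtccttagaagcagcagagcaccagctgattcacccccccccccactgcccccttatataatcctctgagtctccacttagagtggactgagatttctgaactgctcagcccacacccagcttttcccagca
Samd9l: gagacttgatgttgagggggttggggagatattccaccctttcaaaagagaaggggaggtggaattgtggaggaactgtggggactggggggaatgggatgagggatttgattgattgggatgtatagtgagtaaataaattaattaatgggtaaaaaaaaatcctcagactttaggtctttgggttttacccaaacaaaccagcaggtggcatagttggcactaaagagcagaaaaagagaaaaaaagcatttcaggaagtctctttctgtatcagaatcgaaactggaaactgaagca
The Ifit3 promoter holds 2 matches, and those of Ifi44 and Samd9l hold 0 in this window, which says only that these letters are not in it. Of the 27025 promoters in the table, 3.49% hold a match. Of the 11323 genes tested that have a promoter there, 357 hold one (3.15%). Among genes higher in both sets, 3 of 55 do (5.45%). Of the 25 genes lower in both sets, 20 have a promoter in the table, and 5 of these hold one (Ifit3, I830012O16Rik, Igsf10, Mmrn1 and Xpo6).

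Ifi44 went from 70.5 to 19.4 CPM in set 20 and from 13.9 to 3.83 CPM in set 28 with DS3201. Without DS3201 it went from 81.4 to 56.4 and from 46.4 to 39.7 CPM. The knockdown libraries with DS3201 lay below the control of their own set, but the sets overlap, because the knockdown of set 20 was above the control of set 28. Ifit3 went from 68.3 to 22.04 and from 9.80 to 3.19 CPM with DS3201, and from 147.5 to 110.4 and from 38.2 to 43.1 CPM without it. Samd9l went from 171.4 to 80.9 and from 98.0 to 35.7 CPM with DS3201, and its 2 knockdown libraries lay below both controls; without DS3201 it went from 251.0 to 192.5 and from 153.5 to 146.1 CPM.

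The fitted log2 changes with DS3201 were -1.84 ± 0.49 for Ifi44, -1.61 ± 0.37 for Ifit3 and -1.25 ± 0.20 for Samd9l (adjusted p = 0.594 each, edgeR). The differences from the knockdown without DS3201 were -1.496 ± 0.66, -1.53 ± 0.50 and -1.04 ± 0.28 (edgeR, adjusted p = 0.99 each), so a dependence on the inhibitor did not pass the test. With the 4 DS3201 libraries alone edgeR gave adjusted p of 0.00103, 0.0146 and 0.0385, which lean on the spread borrowed from other genes. After the GC correction the log2 differences in set 28 were -1.29, -1.44 and -0.85, so Samd9l was then past 2-fold in set 20 alone. Leaving out the set 20 control with DS3201 brought Ifi44 to -1.01 and Ifit3 to -1.

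Other members showed the same direction with smaller or uneven differences. Ifih1, the MDA5 sensor of viral RNA, went from 225.6 to 137.3 and from 98.3 to 42.2 CPM. Eif2ak2, the kinase PKR, went from 123.7 to 87.7 and from 78.3 to 41.3 CPM. In other members set 28 did not follow set 20. Isg15, a ubiquitin-like modifier, went from 153.6 to 72.4 CPM in set 20 and stood at 13.0 and 13.7 CPM in set 28. The antigen processing genes Tap1 and Psmb8 had log2 differences of -0.66 and -0.34 in set 20 and of 1.03 and 1.49 in set 28, and Bst2, the virus tether tetherin, had -0.82 and 1.09.

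Genes outside the interferon list were also past 2-fold lower in both sets with DS3201. Ptn, which encodes the growth factor pleiotrophin, went from 17.6 to 2.57 CPM in set 20 and from 59.8 to 23.2 CPM in set 28. Without DS3201 it went from 83.8 to 41.6 and from 112.1 to 90.9 CPM, so it was lower with the shRNA in each of the 4 pairs. Pi15, a secreted peptidase inhibitor, went from 16.4 to 4.40 and from 6.80 to 2.36 CPM with DS3201 and lay between 0.523 and 0.875 CPM in the 4 libraries without it. In set 28 the GC-corrected log2 differences were -1.01 for Ptn and -0.72 for Pi15. Igsf10, a large secreted immunoglobulin superfamily protein, went from 87.5 to 34.2 and from 139.3 to 55.5 CPM, with both knockdown libraries below both controls.

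The promoter windows of Igsf10 and Xpo6 hold the GAAA repeat once each. In Igsf10 it lies after the start, near the end of the window. They are shown as other genes lower in both sets with the repeat and at least 5 CPM in control cells with DS3201. Their windows lie at chr3:59344207-59344506 and chr7:126200452-126200751, both on the minus strand.
Igsf10: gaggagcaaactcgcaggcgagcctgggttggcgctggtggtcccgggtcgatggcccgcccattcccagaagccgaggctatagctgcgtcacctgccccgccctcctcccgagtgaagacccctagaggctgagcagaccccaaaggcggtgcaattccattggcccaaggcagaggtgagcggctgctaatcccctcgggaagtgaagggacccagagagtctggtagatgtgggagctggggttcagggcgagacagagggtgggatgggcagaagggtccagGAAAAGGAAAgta
Xpo6: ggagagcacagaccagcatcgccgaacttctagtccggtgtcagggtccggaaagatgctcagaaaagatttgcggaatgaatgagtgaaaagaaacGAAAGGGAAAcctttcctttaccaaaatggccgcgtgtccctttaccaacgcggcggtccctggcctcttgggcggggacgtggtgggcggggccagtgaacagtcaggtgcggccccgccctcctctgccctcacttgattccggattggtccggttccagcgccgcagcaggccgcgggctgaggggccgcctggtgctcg
Xpo6 was lower with and without DS3201, while Igsf10 went from 68.0 to 53.1 and from 170.6 to 189.5 CPM without it.

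Other genes among the 26 were of lower level. Nlgn1, a synaptic adhesion protein, went from 1.19 to 0.314 and from 5.48 to 1.28 CPM. Trp63, the p63 transcription factor of epithelia and a member of the epithelial marker list, went from 12.6 to 5.15 and from 1.24 to 0.128 CPM. It was the 1 of 9 markers on that list lower in both sets, and 6 of the 9 were higher in both. Mmrn1, Ddit4l and Igip were under 6 CPM in all 4 DS3201 libraries, with log2 differences between -1.22 and -1.96. The only repeat among the 26 was the ERVL element LTR33B, at 2.27 to 1.07 and 1.41 to 0.575 CPM. Of the 26, 13 were also lower in both sets without DS3201 (13 of 26, against 30.3% of all entries) and 2 were past 2-fold lower there in both (7.69%, against 0.0589%). These 2 were Ring1 and Fam63b. Ring1, also among the 13, is the target of the shRNA and so is lower by design.

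The 78 genes higher in both sets were mostly genes of low level. With DS3201 their median level in set 20 was 1.08 CPM for the control shRNA and 3.14 CPM for the Ring1a shRNA, and in set 28 it was 1.15 and 3.19 CPM. Without DS3201 the medians were 0.0475 and 0.0609 CPM in set 20 and 0.101 and 0.269 CPM in set 28. Of the 78, 70 had a mean under 1 CPM in the control cells without DS3201 (89.7%, against 15.6% of all entries). Most were thus nearly undetected without the inhibitor, above detection with it, and higher again with the inhibitor and the Ring1a shRNA. Of the 78, 38 were also higher in both sets without DS3201 (48.7%, against 35.3% of all entries), and 6 were past 2-fold there in both (7.69%, against 0.366%). Because an entry counted here needed at least 1 CPM in the higher library, weak genes could enter only through the knockdown. At 5 CPM in the higher library, 14 remained higher and 12 lower.

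Of the genes ranked highest, 4 are given first. Bmp7, a bone morphogenetic protein, went from 0.850 to 3.27 CPM in set 20 and from 0.353 to 3.26 CPM in set 28 with DS3201, and was at 0.0950 CPM or 0 without it. Mdga1, a membrane-anchored protein that binds neuroligins, went from 1.42 to 4.84 and from 2.39 to 12.4 CPM. Ak4, a mitochondrial adenylate kinase, went from 2.49 to 8.85 and from 5.74 to 18.8 CPM. In Bmp7, Mdga1, Ak4 and Mycn the 2 knockdown libraries lay above both controls with DS3201. Mycn, the N-Myc transcription factor, went from 0.623 to 2.20 and from 1.68 to 7.47 CPM, and it was higher with the shRNA without DS3201 as well, from 0.0475 to 0.447 and from 0.470 to 3.03 CPM.

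The fitted log2 changes were 2.46 ± 0.60 for Bmp7, 2.06 ± 0.40 for Mdga1, 1.77 ± 0.36 for Ak4 and 2.00 ± 0.47 for Mycn (edgeR, adjusted p = 0.594 each). After the GC correction both sets were still past 2-fold, with log2 differences in set 28 of 2.36, 1.57, 1.69 and 1.64. Mmp10, a stromelysin that cuts extracellular matrix, had the highest level of those named, from 18.2 to 81.5 CPM in set 20 and from 14.9 to 32.3 CPM in set 28. Without DS3201 it went from 0.380 to 1.63 and from 1.61 to 8.48 CPM, so it was higher with the shRNA in all 4 pairs. The fitted change of Mmp10 with DS3201 was 1.83 ± 0.77, and 0.25 without the Ring1a shRNA library of set 20. Sema7a, a membrane-bound semaphorin, went from 2.78 to 7.91 and from 1.24 to 4.73 CPM. Arhgdig went from 1.98 to 6.84 and from 2.39 to 7.28 CPM, with a log2 difference in set 28 of 0.58 after the correction.

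Several of the highest ranked rest on few reads. Hist1h2ad, a replication-dependent H2A gene, went from 0.227 to 1.13 and from 0.0883 to 1.02 CPM. Smagp, Kcnh3, Dlgap3, Pth1r and Wnk2 were between 0 and 3.01 CPM in all 4 DS3201 libraries, and the correction took set 28 to 0.50 in log2 for Dlgap3 and Wnk2. Kcnh3 had 0 counts in the set 28 control, against which its 1.28 CPM in the knockdown is at least 4.82-fold higher, taking 3 counts in that library as the floor. The Wnt target Axin2 and the metalloproteinase Mmp17, named after their values were seen, were better counted: Axin2 went from 10.4 to 22.4 and from 1.501 to 5.11 CPM, and Mmp17 from 11.2 to 23.8 and from 3.53 to 15.3 CPM. Both were higher with the shRNA without DS3201 too, Axin2 from 0.285 to 2.07 and from 0.134 to 1.01 CPM and Mmp17 from 0.665 to 3.82 and from 0.134 to 1.08 CPM.

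**Figure D4:**
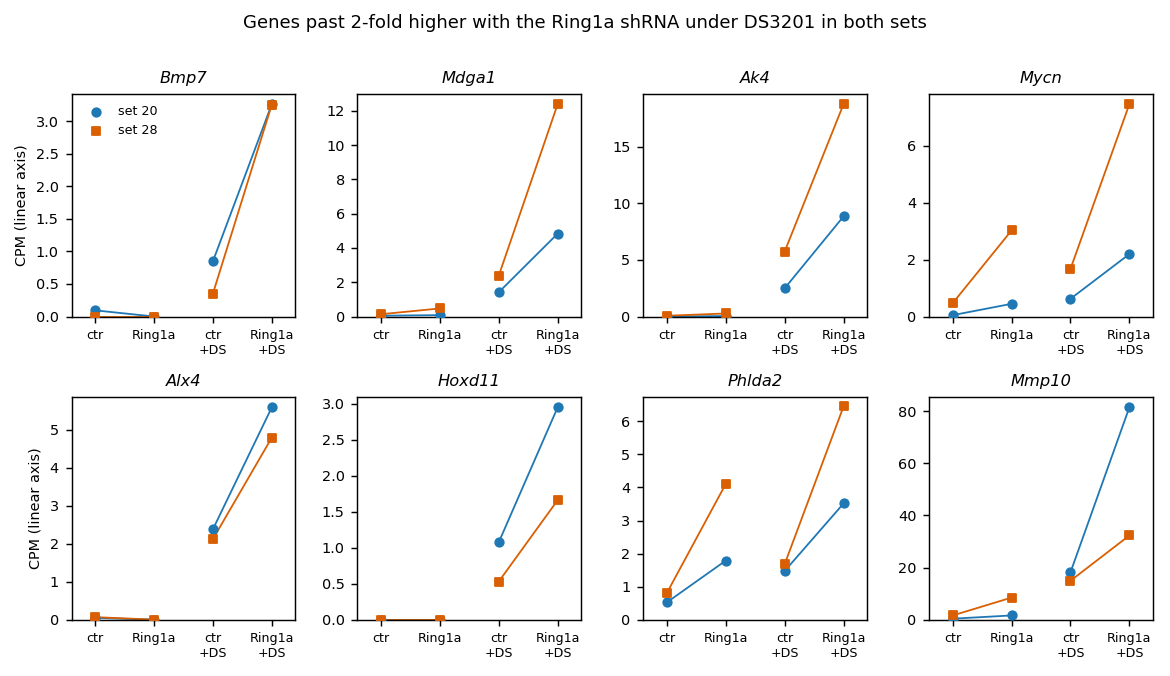
CPM on linear axes in each of the 8 libraries for 8 genes at least 2-fold higher with the Ring1a shRNA under DS3201 in both sets; lines join the control (ctr) and Ring1a shRNA libraries of a set, and +DS marks DS3201. Bmp7, Mdga1, Ak4, Alx4 and Hoxd11 are under 1 CPM in all 4 libraries without DS3201. Mycn, Phlda2 and Mmp10 are higher with the shRNA in both treatments.

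Transcription factors that pattern the embryo are classical Polycomb targets. Of 64 measured developmental factors, 38 were higher in both sets with the Ring1a shRNA under DS3201 (59.4%, against 26% of all entries) and 6 were lower in both (9.38%, against 26.6%). None passed the edgeR test, and 12 had an unadjusted p under 0.05 and were higher, 1 lower. Over all 15287 entries 518 were higher and 618 lower at that p. The median log2 difference was 0.42 in set 20 and 0.34 in set 28. After the GC correction it was 0.45 in set 20 and -0.01 in set 28, with 27 higher in both (4337 of all 14260 genes). The shift of set 28 thus ended with the correction and that of set 20 did not. Without DS3201 the medians were 0.15 and 0.07.

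Past 2-fold higher in both sets were 5 of the 64, Gata4, Alx4, Pax2, En2 and Pax6, against 78 of all 15287 entries (0.51%). Gata4, a zinc finger factor of heart and endoderm, went from 2.32 to 5.27 and from 2.30 to 6.64 CPM, and Alx4, a homeobox factor of the limb and skull, from 2.38 to 5.59 and from 2.12 to 4.79 CPM. In both, the 2 knockdown libraries lay above both controls. En2, a homeobox factor of the midbrain and hindbrain, went from 2.49 to 5.46 and from 5.74 to 14.8 CPM; its groups overlap across sets. Alx4 and En2 had at most 0.269 CPM in the libraries without DS3201. After the GC correction 1 of the 64 remained past 2-fold in both sets, and Alx4 and Gata4 had log2 differences of 0.69 and 0.83 in set 28.

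Better counted members moved less. Gata2 went from 13.5 to 24.3 and from 12.2 to 25.5 CPM with DS3201, and from 5.66 to 11.3 and from 5.30 to 9.15 CPM without it. Runx3 went from 27.98 to 39.8 and from 31.1 to 53.5 CPM. Twist2 went from 32.3 to 43.7 and from 23.8 to 45.9 CPM. In each of these 3 the knockdown libraries with DS3201 lay above both controls, but the 3 were chosen after their values were seen. Their values in set 28 are as counted, without the GC correction. Prrx1, a homeobox factor of mesenchyme, had the smallest p of the 6 members lower in both, from 252.1 to 190.1 and from 165.7 to 105.1 CPM, and without DS3201 it stood at 242.7 and 257.3 CPM in set 20 and at 153.6 and 162.3 CPM in set 28.

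Hox genes, which set position along the body axis, showed the same pattern. Of 27 measured, 16 were higher in both sets (59.3%, against 26% of all entries) and 1 was lower in both (against 26.6%). The lower one, Hoxc13, went from 70.8 to 67.9 and from 51.5 to 42.7 CPM. The medians were 0.48 in set 20 and 0.46 in set 28, and after the GC correction 0.50 and 0.07. Hoxd11 was the only member past 2-fold in both sets, from 1.08 to 2.95 and from 0.530 to 1.66 CPM, and it had 0 counts in all 4 libraries without DS3201. Hoxa10, the best counted member that was higher in both sets with an unadjusted p under 0.05, went from 19.6 to 29.8 and from 30.1 to 38.0 CPM.

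The subunits of the Polycomb complexes themselves showed small differences. Of 29 PRC1 genes, 1 was past 2-fold in both sets, Ring1 itself, and 12 were higher (41.4%, against 26% of all entries) and 7 lower in both (24.1%, against 26.6%). Rnf2, the gene of RING1B, was at 31.4 and 26.4 CPM in set 20 and at 89.0 and 61.6 CPM in set 28, a fitted change of -0.41 ± 0.23. Counts over the whole gene do not test the knockout, since the deleted part is not given in the sources used here. Among 11 PRC2 genes, Ezh1 went from 21.8 to 25.9 and from 13.0 to 15.6 CPM, Ezh2 from 80.9 to 89.6 and from 155.5 to 108.1 CPM, Suz12 from 145.4 to 138.4 and from 251.7 to 151.8 CPM, and Jarid2 from 22.7 to 29.7 and from 14.8 to 21.3 CPM. The fitted change of Jarid2, an accessory subunit, was 0.46 ± 0.18 (edgeR, adjusted p = 0.594).

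Of the H3K9 methyltransferase genes named in the genotype, Ehmt2 differed between the sets, from 217.0 to 201.0 CPM in set 20 and from 98.9 to 173.1 CPM in set 28. Its GC-corrected log2 difference was -0.09 in both sets. Fitted log2 changes with DS3201 were 0.04 ± 0.25 for Setdb1, 0.20 ± 0.17 for Suv39h1, -0.09 ± 0.24 for Suv39h2, -0.13 ± 0.14 for Ehmt1 and 0.30 ± 0.27 for Ehmt2. The fitted signs for Ehmt2 and Suv39h2 turn with the GC correction, to -0.09 and 0.15. The 12 measured neighbours of Ring1 had median log2 differences of -0.06 (set 20) and 0.90 (set 28), the second becoming 0.30 after the correction.

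Genes of the 2-cell embryo differed in direction as counted, and less so after the GC correction. They mark a rare state of embryonic stem cells and are driven by the transcription factor Dux. Of 30 measured, 10 were higher (33.3%, against 26% of all entries) and 6 lower in both sets (20%, against 26.6%), with medians of 0.08 and 0.00. After the correction 17 of 29 were higher in both (4337 of all 14260 genes) and 1 was lower (3565 of all), with medians of 0.10 and 0.29. Dux went from 0.963 to 2.57 and from 0.442 to 2.11 CPM and Arg2, an arginase, from 2.21 to 5.21 and from 0.883 to 3.00 CPM, the 2 members past 2-fold in both sets. Dux had no GC content here, so its values were not corrected. Reads of Dux come from a repeated array, and how the authors counted such reads is not given in the sources used here. Zscan4c stood at 137.7 and 146.5 CPM in set 20 and at 91.1 and 69.8 CPM in set 28. The endogenous retrovirus MERVL-int, active at the same stage, stood at 930.8 and 976.8 CPM in set 20 and at 2195 and 2355 CPM in set 28, a fitted log2 change of 0.09 ± 0.25.

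Repeats as a whole differed between the sets. Over 894 repeat subfamilies the median log2 difference was 0.08 in set 20 and -0.52 in set 28. In set 28, 128 of them were past 2-fold lower, against 641 of all 15287 entries (4.19%). L1 elements had medians of 0.09 and -0.89. Their summed level was 11100 and 11200 CPM in set 20 and 29000 and 13200 CPM in set 28. The high value lies in the control library with DS3201 of set 28, which stands apart; the other 6 libraries outside this pair of set 28 held between 9600 and 11900 CPM. IAP elements stood at 44100 and 45400 CPM in set 20 and at 60700 and 58900 CPM in set 28.

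Further lists are described by their medians in set 20 and set 28, none with a member past the edgeR threshold. Extracellular matrix and fibroblast genes had medians of -0.15 and 0.05, with 18 of 54 lower (33.3%, against 26.6% of all entries) and 12 higher in both sets (22.2%, against 26%). Corrected for GC content, the medians were -0.12 and -0.16, with 25 lower and 10 higher in both. Ogn, a small leucine-rich proteoglycan, went from 39.0 to 13.1 and from 28.5 to 14.5 CPM, its knockdown libraries below both controls, but its log2 difference in set 28 was -0.25 after the correction. Col6a3, a collagen VI chain, went from 363.2 to 193.6 and from 105.8 to 60.0 CPM. Cholesterol synthesis genes had medians of -0.31 and 0.13, and without DS3201 of -0.55 and -0.11; with DS3201 and the correction they were -0.28 and 0.14. Hmgcs1, which makes the precursor of mevalonate, went from 244.8 to 168.0 and from 237.5 to 151.3 CPM and was the member lowest in both sets together. DNA replication and mitosis genes had medians of -0.10 and -0.23. Of 44, 20 were lower (45.5%, against 26.6% of all entries) and 4 higher in both (9.09%, against 26%). After the correction the medians were -0.07 and -0.13, with 21 lower and 5 higher in both.

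Targets of p53 and CDK inhibitors had medians of -0.06 and -0.01, and -0.03 and 0.11 after the correction. Cdkn1a, the CDK inhibitor p21, stood at 172.8 and 153.3 CPM in set 20 and at 89.8 and 149.3 CPM in set 28. Immediate early genes had medians of 0.28 and 0.32, and 0.30 and 0.00 after the GC correction. Klf4 went from 32.2 to 52.4 and from 29.2 to 48.4 CPM and Dusp1 from 48.8 to 78.4 and from 43.7 to 66.3 CPM, both with the knockdown above both controls, while Egr1 went from 43.1 to 25.2 and from 31.4 to 17.2 CPM. Of 35 imprinted genes, 14 were higher (40%, against 26% of all entries) and 8 lower in both sets (22.9%, against 26.6%), and Phlda2, which restrains placental growth, was past 2-fold, from 1.47 to 3.52 and from 1.68 to 6.45 CPM. The chemokine gene Cxcl12, on the list of senescence secretory genes, went from 54.6 to 33.1 and from 342.4 to 194.1 CPM. Ribosomal protein genes had medians of 0.11 and 0.30, and of 0.14 and 0.17 after the correction. As counted, 46 of 74 were higher in both sets (62.2%, against 26% of all entries) and 1 lower (1.35%, against 26.6%).

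Markers of other cell types were examined because the bulk values cannot tell fewer cells of a type from less RNA per cell. Blood and macrophage markers had medians of 0.46 and 0.60 over 11 members, and their summed level was 52.7 and 63.6 CPM in set 20 and 26.3 and 35.3 CPM in set 28. Muscle markers had medians of 0.46 and 0.14 over 15, epithelial markers 0.42 and 0.34 over 9, endothelial markers 0.06 and 0.19 over 10 and neuronal markers 0.06 and -0.21 over 11. Corrected for GC content, the medians of set 28 were 0.31 for blood, 0.02 for muscle, -0.24 for epithelial, 0.01 for endothelial and -0.17 for neuronal markers. Those of set 20 lay between 0.08 and 0.50. The pan-leukocyte gene Ptprc stood between 1.34 and 5.03 CPM in the DS3201 libraries. The part of such cells in the values above was not tested.

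**Figure D5:**
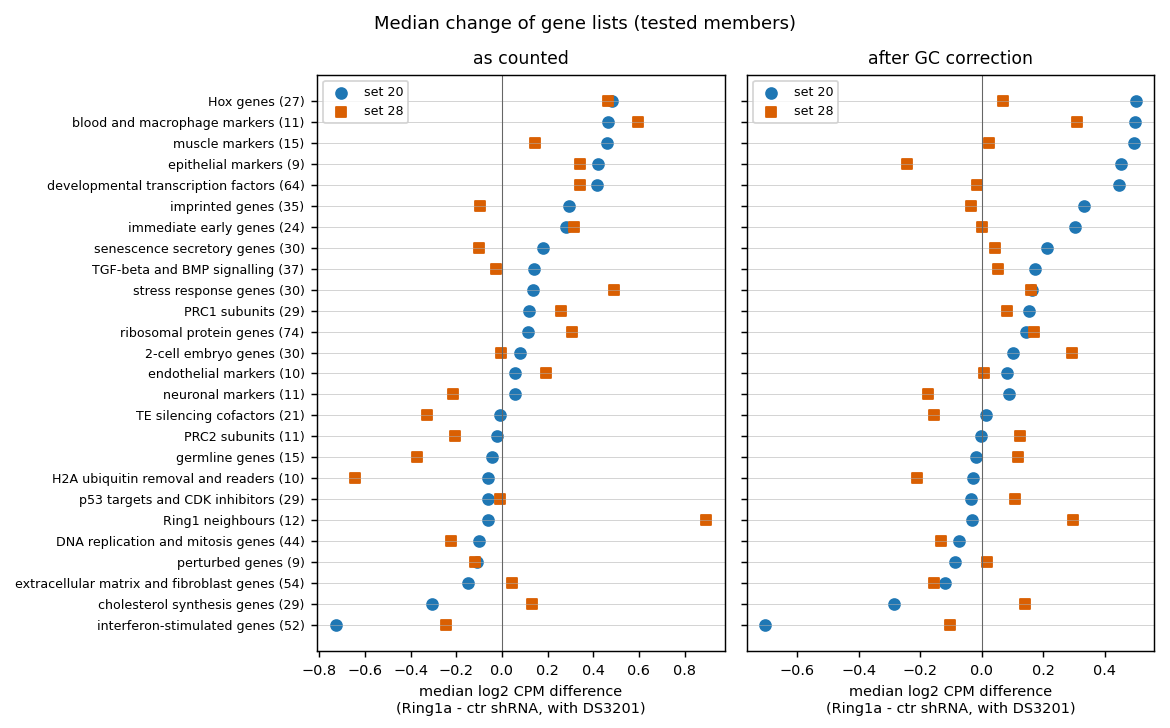
Median log2 CPM difference between the Ring1a and control shRNA with DS3201 for each gene list (number of tested members in brackets), in set 20 and set 28, as counted (left) and after the GC correction (right). The interferon list is lowest in set 20 (-0.73 as counted). Hox genes and developmental factors lie above 0.3 in both sets as counted, and near 0 in set 28 after the correction.

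Each set also had large differences of its own. In set 20, Ceacam1, a cell adhesion molecule, went from 1.64 to 12.3 CPM while set 28 held 0.618 and 0.894 CPM. Ly6c2, a surface marker of monocytes, went from 46.6 to 9.29 CPM in set 20 and from 6.18 to 4.02 CPM in set 28; without DS3201 it went from 39.4 to 10.4 and from 5.30 to 3.90 CPM. Car3, a carbonic anhydrase, went from 59.5 to 15.8 CPM in set 20 and from 27.6 to 18.8 CPM in set 28. Rassf9 went from 7.42 to 1.69 CPM in set 20 and had 0 counts in set 28.

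In set 28, Myl6b, a myosin light chain, went from 1.86 to 29.8 CPM and stood at 2.55 and 2.95 CPM in set 20. The high value is in 1 library, since the other 7 held between 1.86 and 3.50 CPM. Trp53i11 went from 0.883 to 7.86 CPM in set 28 and from 11.9 to 23.6 CPM in set 20. Wnt11, a Wnt ligand, went from 0.972 to 7.03 and, in set 20, from 2.72 to 4.46 CPM. Cd36, a fatty acid transporter, went from 18.5 to 4.15 CPM in set 28 and from 0.793 to 0.251 CPM in set 20. Sdc3, a syndecan, and Sept3, a septin, were higher in both sets by unequal amounts, with log2 differences of 2.22 and 1.95 in set 20 and 1.20 and 0.48 in set 28.

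No entry passed the test of the difference between the knockdown effects (edgeR, adjusted p of 0.99 or more). Some of those with the smallest p are given as values, chosen after these were seen. Also among the smallest p were F830016B08Rik (difference in log2 change -1.65 ± 0.34), Usp17ld (-2.38 ± 0.59) and Vmn2r3. Vmn2r3 had a positive difference, 5.50 ± 1.41, and was under 1 CPM in all 8 libraries. In Ogfrl1 and Add3 the level was higher with the Ring1a shRNA without DS3201, while both controls with DS3201 stood above all libraries without it. Ogfrl1 had 0 counts in both controls without DS3201 and 0.650 and 1.14 CPM with the shRNA, while with DS3201 it stood at 10.9 and 14.8 CPM in set 20 and at 19.17 and 17.8 CPM in set 28. Add3, an adducin of the membrane skeleton, went from 0.143 to 1.75 and from 0.805 to 4.71 CPM without DS3201, and stood at 37.1 and 49.4 and at 44.6 and 40.3 CPM with it. Pmaip1, the cell death gene NOXA, went from 9.98 to 21.8 and from 27.6 to 66.8 CPM without DS3201, and from 50.2 to 73.5 and from 157.4 to 153.1 CPM with it.

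Cp, which encodes ceruloplasmin, turned: it went from 10.8 to 18.7 and from 4.09 to 8.21 CPM without DS3201, and from 72.7 to 53.9 and from 49.9 to 31.2 CPM with it. The difference in log2 change was -1.43 ± 0.34 for Cp, -6.70 ± 0.93 for Ogfrl1 and -0.94 ± 0.27 for Pmaip1, the second resting on controls with 0 counts and thus on the prior count. Casp12, an inflammatory caspase, had log2 differences of -0.57 and -0.97 with DS3201 and of 0.00 and -0.05 without it. It went from 51.5 to 34.7 and from 37.2 to 18.97 CPM with DS3201, and from 71.7 to 71.4 and from 44.0 to 42.5 CPM without it. In set 28 the GC correction took the log2 difference with DS3201 from -0.67 to -0.20 for Cp and from -0.97 to -0.29 for Casp12. It took Pmaip1 from -0.04 to 0.41, Ogfrl1 from -0.11 to 0.41 and Add3 from -0.15 to 0.14. These last genes were then higher in both sets. The 4 genes Tcf7, Stc2, C1ql1 and Bai2, among those with the smallest p for the knockdown without DS3201, were higher with the shRNA in both treatments. Their fitted log2 changes were 1.46 to 3.48 without DS3201 and 0.79 to 1.58 with it. With DS3201 the log2 differences of Bai2 were 0.22 in set 20 and 1.42 in set 28, where the GC correction gave 0.39; for C1ql1 they were 1.40 and 1.67, the second 0.50 after the correction.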

How the data were processed

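Raw read counts per gene and per repeat subfamily were deposited by the authors as 1 table, unnormalized by its values; Trim Galore, TopHat2 and mm10 are named per the submitters' processing notes, and the counting tool is not given in the sources used here. Of its columns, 8 other ones were not used. Of 25215 entries, 15287 passed filterByExpr. Counts were fitted with edgeR 4.0.16 (R 4.3.3, TMM, quasi-likelihood, two-sided, Benjamini-Hochberg threshold 0.05) over 8 libraries, with the set as block; DESeq2 1.42.0 was an alternative. The SE is the log2 change over the root of F. Within a set, log2 CPM differences (prior count 2) had no test. Library totals ran from 12738585 to 23688253, so 3 counts, used as the floor, equal 0.17 to 0.265 CPM with DS3201; floors cover counting error only.

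Libraries of the same prefix deviated together (pearson r 0.559 to 0.897 over 6 pairs of groups), and the prefix, taken from the column names, was kept as block. Members and lists were chosen with earlier results of these data known. Where knockdown libraries are said to lie apart from the controls, this describes genes picked by their values. No share over all entries is given for it. Genes named were the perturbed genes, the 12 ranked first a direction past 2-fold in both sets, 6 a direction in each set with at least 5 CPM, and leading list members; any other is a choice made after its values were seen, including the genes lower with and without DS3201. GC content was taken from annotated transcripts, and its correction, a lowess curve per library used as offsets, was added after the data were seen. Other alternatives were other scalings, filters and prior counts, no block, the 4 DS3201 libraries alone and leaving out each library. The fit was tested on simulated data.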

Additional observations from a re-analysis of the deposited data

How the results depend on the processing

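The counts of calls differed with the libraries fitted and with the tool. For the knockdown with DS3201, edgeR on all 8 libraries called 0 higher and 0 lower. With the GC correction no entry passed in that fit either (edgeR, smallest adjusted p 0.416). DESeq2 called 9 and 28. On the 4 DS3201 libraries edgeR called 11 and 9, and 24 and 44 with the GC correction. Without the replicate block edgeR called 0 and 0, and Ring1 had a log2 change of -2.33 (adjusted p = 1). Ring1 passed on the 4 DS3201 libraries with the block (-2.21) and with the GC correction there (-2.52). Leaving out 1 library gave 0 to 2083 higher, 0 to 2162 lower, and 0 to 1058 and 0 to 978 for the difference between knockdown effects; all counts above 0 came from leaving out the set 20 control with DS3201, where its group is assumed to vary like the others. Over these fits Ring1 ranged from -2.5 to -1.85, Ifi44 from -2.51 to -1.01, Ifit3 from -2.03 to -1, Bmp7 from 1.85 to 3.4 and Mmp10 from 0.248 to 2.72, the last 2 set by the Ring1a shRNA libraries with DS3201. The causes were not tested.

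At 5 CPM, 14 entries were higher and 12 lower in both sets, 73 and 61 in set 20, and 866 higher in set 28. With the GC correction these were 51 and 13 in both, and 567 and 272 in set 28. Without scaling 339 were lower in set 28, where the median of all entries was 0.16. Signs turned without scaling for Ehmt1 in set 28 (0.0483), and with the GC correction for Ehmt2 (-0.0861 in set 28, -0.0877 fitted, -0.139 on 4 libraries), Suv39h2 (0.0168, 0.151 and 0.13), Rnf2 in set 28 (0.0387) and Ezh2 (0.00368). Leaving out 1 library, Ehmt2 ranged from -0.112 to 0.848, Ezh2 from -0.418 to 0.0825, Suv39h2 from -0.402 to 0.295, Setdb1 from -0.103 to 0.264, Gata4 from -0.414 to 2.85 and Mmrn1 from -3.9 to 0.253.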

Other observations

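Several genes were called by DESeq2 with the block and not by edgeR on the 8 libraries, and are named for that reason after their values were seen. Nrp1, a co-receptor for semaphorins and VEGF, went from 142.1 to 96.8 CPM in set 20 and from 175.7 to 106.9 CPM in set 28 with DS3201. Sgcb, a sarcoglycan, went from 52.2 to 29.1 and from 52.9 to 21.4 CPM. Sorbs2, an adaptor of the actin skeleton, went from 4.30 to 2.32 and from 36.9 to 12.8 CPM. Dusp4, a phosphatase of MAP kinases, went from 13.5 to 41.1 and from 54.7 to 92.8 CPM, and Dusp3, a related phosphatase, from 41.3 to 79.1 and from 88.2 to 140.9 CPM. Gna11, a G protein alpha subunit, went from 24.97 to 42.6 and from 11.2 to 27.9 CPM. In Nrp1, Sgcb and Gna11 the knockdown libraries did not overlap the controls. That is no added support, since these genes were picked by a test on the same libraries.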
